A study of Mus musculus with 8 samples.

Results

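In skin fibroblasts grown from mice with and without an Nd2 mutation, transcripts of p53 and of 9 genes that regulate it or are transcribed under its control were measured. The members were chosen by symbol, namely Trp53, Mdm2, Mdm4, Ccng1, Bax, Sesn1, Sesn2, Phlda3, Trp53inp1 and Perp, and every probe that carries one of these symbols was taken. This gave 20 of the 25697 probes on the array, for 10 of its 18138 gene symbols. Nd2-mutant fibroblasts came from 4 mice of the conplastic strain C57BL/6J-mtALR/LtJ (the males 28 and 32 and the females 34 and 35), which carry a leucine-to-methionine exchange in NADH dehydrogenase subunit 2, a mitochondrially encoded subunit of respiratory complex I. Control fibroblasts came from C57BL/6J-mtAKR/J, again with 4 mice (the males 16 and 17 and the females 15 and 37). Both strains hold the nuclear genome of C57BL/6J with the mitochondrial genome of another strain, so that the control is a conplastic strain too and not the parental line. All mice were 12 months old, the cells were primary cultures at their first passage that received no treatment, and each array held the RNA of 1 mouse.

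p53 is a transcription factor that is kept scarce in unstressed cells, because Mdm2 marks it for degradation and Mdm4 masks its activation domain. Damage to DNA and other stresses lift this control, and p53 then switches on genes for cell cycle arrest, apoptosis, antioxidant defence and metabolic adjustment. Mdm2 is itself one of its targets, which closes a feedback loop. p53 is regulated mostly through the stability and modification of the protein, whereas the arrays measured messenger RNA alone. The study asked whether the mutation alters the senescence of the fibroblasts, expecting less of it in the mutant. It also examined phosphorylated p53 protein, in a time course after doxorubicin and in lysates pooled over mice. The comparison of the strains here gives the transcripts of the pathway in the same kind of cells, untreated and mouse by mouse.

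The response element of p53 is built from copies of a consensus decamer that reads the same on both strands. Promoter sequences of RefSeq on GRCm38.p6, each running from 250 bases before to 50 after an annotated start, were searched for this decamer without mismatch, and they are shown because the members are grouped here as genes of p53. 10 promoter windows of 8 members were found, and Trp53inp1 and Perp had none in the table. 5 of these 10 windows (50%) held the decamer, against 8.36% of all 32851 promoters, and 0 of the 10 held a pair of decamers at the spacing of a full element, against 0.0731% of all promoters. The decamer was found in 1 window each of Mdm2, Trp53, Ccng1, Bax and Sesn1, in the last at 1 of 2 annotated starts. No match was found in either window of Mdm4, in those of Sesn2 and Phlda3, or at the other start of Sesn1. A match is a description of these letters and not a binding site, and response elements further away, such as those in first introns, lie outside the windows. The 60 bases around each match follow, read 5′ to 3′ along the strand of the gene, with the decamer in capitals.
Mdm2, minus strand, chr10:117710905-117710964, decamer 186 bases before the start: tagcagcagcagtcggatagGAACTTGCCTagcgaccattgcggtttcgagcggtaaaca
Trp53, plus strand, chr11:69580264-69580323, decamer 75 bases before the start: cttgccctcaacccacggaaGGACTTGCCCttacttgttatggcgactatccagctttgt
Ccng1, minus strand, chr11:40755432-40755491, decamer 185 bases before the start: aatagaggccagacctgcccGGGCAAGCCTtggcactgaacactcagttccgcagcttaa
Bax, minus strand, chr7:45467060-45467119, decamer 201 bases before the start: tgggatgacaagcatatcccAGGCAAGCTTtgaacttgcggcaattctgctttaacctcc
Sesn1, plus strand, chr10:41887246-41887305, decamer 173 bases before the start: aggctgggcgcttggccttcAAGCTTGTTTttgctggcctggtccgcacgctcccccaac

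Values below are background-subtracted, quantile-normalised intensities on a linear scale, and detection means a detection p-value below 0.01. The Nd2-mutant arrays each detected 10973 to 11350 probes and the control arrays 10663 to 10837. Mean correlation with the other arrays was 0.934 for control mouse 15 and 0.963 to 0.974 for the other 7 mice. Of the markers of other cell types, the summed intensity of 10 macrophage genes was 1829 in Nd2-mutant mouse 35 and at most 613 in the other 7 mice, with the leukocyte gene Ptprc not detected on any array. Of the 6 tested macrophage markers 5 were higher and 1 lower in the mutants (median log2 fold change 0.68), 0 of them at an unadjusted p under 0.05 by limma. The 9 fibroblast markers were detected throughout and summed to between 35978 and 41205 in Nd2-mutant and between 30022 and 44242 in control fibroblasts. Of these markers 6 were higher and 3 lower in the mutants (median log2 fold change 0.19). Among them Lum lay fully apart between the strains, as did 4.37% of all probes tested. It read 212 to 265 in the mutants and 53.1 to 201 in the controls. Its log2 fold change was 0.88 (unadjusted p = 0.0180, limma adjusted p = 0.639). The 7 keratinocyte markers with a probe summed to between 198 and 1185 and between 325 and 952, with Krt14 between 38.3 and 1007 in the mutants and none of the 5 others than Krt14 and Krt10 passing the filter for testing. Summed endothelial markers lay between 123 and 218 in the mutants and between 199 and 454 in the controls, summed smooth muscle and pericyte markers between 11010 and 14357 and between 12871 and 14685, and none of 5 melanocyte markers passed the filter. Acta2 made up most of the smooth muscle sum, and all 4 tested markers of that list were lower in the mutants (median log2 fold change -0.55), among them Myh11 at -1.06 (unadjusted p = 0.015, limma adjusted p = 0.639). Of the 4 tested endothelial markers 3 were lower, and Emcn lay fully apart between the strains (50.9 to 124 in the mutants, 125 to 272 in the controls, log2 fold change -1.20, unadjusted p = 0.00117, limma adjusted p = 0.639). The strains overlapped for Pecam1, Cdh5 and Tek, at log2 fold changes of -0.40, -0.08 and 0.49. Pecam1 and Cdh5 were highest in control mouse 15, at 88.6 and 61.5. The part of these cells in the results was not tested.

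Differences between the strains were fitted with limma on log2 of the intensity with 16 added, over the 10414 probes that every array of one or both strains detected, and are given as Nd2 mutant minus control. 14 member probes of 8 genes entered the fit, and all 14 were detected on all 8 arrays. The other 6 member probes were not detected on any array. No member differed at an adjusted p under 0.05 (0 of 14), and the same held for all probes tested (0%). The adjusted p of the members by limma lay between 0.639 and 0.983. At an unadjusted p under 0.05 there were 3 member probes (21.4%), 2 for Sesn2 that were higher and 1 for Mdm2 that was lower in Nd2-mutant fibroblasts, against 7.63% of all probes tested (4.5% higher and 3.13% lower). The log2 fold changes of the 14 probes ran from -0.39 to 0.47 with a median of 0.08, 7 higher and 7 lower, and the median over all tested probes was 0.00. Without regard to direction, the median size was 0.27 for the members and 0.16 for all. The 14 probes include 3 of Ccng1, whose direction turned without control mouse 15. The tested probes as a whole include some that were not detected on every array, so the 2 medians are given as a description. The 4 mice of one strain lay fully apart from the 4 of the other for 1 member probe (7.14%), against 4.37% of all probes (2.24% higher and 2.13% lower). These p-values measure the spread between 4 separate mice a strain, the number of arrays limits the precision, and a lower intensity cannot tell fewer cells of a type from less RNA per cell.

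**Figure D1:**
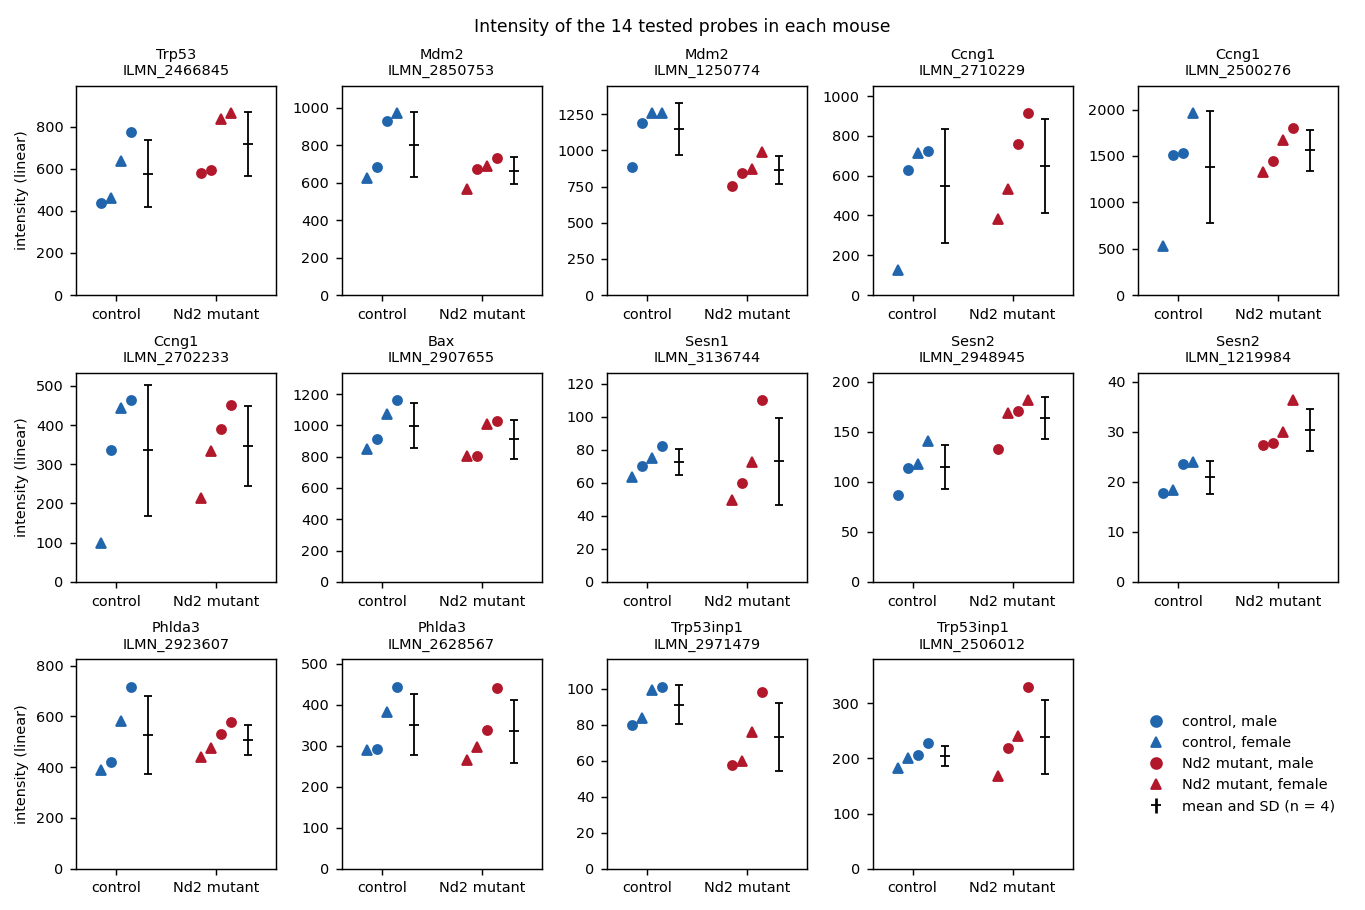
Linear intensity of the 14 tested member probes in each mouse, 1 panel a probe with its own axis from 0. Circles are males and triangles females, control on the left and Nd2 mutant on the right, with the mean and SD of 4 mice beside them. The strains overlap in every panel except that of Sesn2 probe ILMN_1219984, and control mouse 15 is the low triangle in the 3 panels of Ccng1.

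The messenger RNA of p53 itself (Trp53, probe ILMN_2466845) was readily detected. Its intensity was 579 and 596 in the Nd2-mutant males, 835 and 864 in the Nd2-mutant females, 436 and 774 in the control males and 458 and 638 in the control females. Both mutant females lay above all other mice, the mutant males lay within the control range, and the strains overlapped. Nd2-mutant fibroblasts averaged 719 ± 152 and control fibroblasts 577 ± 159 (SD, n = 4 each), which gave a log2 fold change of 0.32 (SE 0.22, 95% interval -0.16 to 0.81) that did not pass the test (limma adjusted p = 0.685, exact permutation p = 0.229). The difference was 0.64 between females and 0.01 between males on the log2 scale. This was the member with the smallest p for an interaction of strain and sex, and the interaction did not pass the test (log2 -0.62, SE 0.41, unadjusted p = 0.168, limma adjusted p = 0.9999).

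Mdm2, the ubiquitin ligase that limits p53 and is induced by it, was measured by 3 probes. Probe ILMN_1250774 read 756, 845, 986 and 874 in Nd2-mutant mice 28, 32, 34 and 35, and 1258, 1192, 887 and 1257 in control mice 15, 16, 17 and 37. 3 control mice lay above every mutant, and the strains overlapped only because control mouse 17 was below mutant mouse 34. The means were 865 ± 95.3 and 1148 ± 177 (SD, n = 4 each), a log2 fold change of -0.39 (SE 0.16, 95% interval -0.75 to -0.04), or 1.31-fold lower. The unadjusted p was 0.0313, and neither the adjusted p of 0.639 by limma nor the exact permutation p of 0.0571 passed the threshold. The difference was -0.36 between males and -0.43 between females. Mdm2 stands on the study's own list of lower genes, which was drawn from these same arrays, so that its direction here is no independent evidence.

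The second Mdm2 probe, ILMN_2850753, read 676, 732, 687 and 566 in the mutants and 625, 931, 685 and 973 in the controls, in the same order of mice. Control mice 16 and 37 were above all mutants, and control mice 15 and 17 lay among them. Its log2 fold change was -0.25 (SE 0.18, 95% interval -0.64 to 0.14, limma adjusted p = 0.696, exact permutation p = 0.257). Control mouse 15 was the highest of the 8 mice on ILMN_1250774 and the second lowest on this probe. The remaining Mdm2 probe, ILMN_1229882, was not detected on any array, with intensities between -2.67 and 5.96. Mdm4, the relative of Mdm2 that blocks the activation domain of p53, was not detected by any of its 3 probes on any array, with intensities between -5.89 and 9.80 and a smallest detection p-value of 0.0251, so that no level and no difference can be given.

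The sestrins are stress-inducible proteins that restrain mTORC1 signalling and take part in antioxidant defence. Sesn2, whose transcript also responds to stresses other than those that act through p53, was higher in Nd2-mutant than in control fibroblasts on both of its probes at an unadjusted p. Probe ILMN_2948945 read 171, 133, 169 and 182 in mutant mice 28, 32, 34 and 35, and 118, 114, 86.6 and 141 in control mice 15, 16, 17 and 37. 3 mutants lay above all controls, and mutant mouse 32 lay below control mouse 37. The means were 164 ± 21.2 and 115 ± 22.2 (SD, n = 4 each), a log2 fold change of 0.47 (SE 0.17, 95% interval 0.10 to 0.83), or 1.38-fold (95% interval 1.07 to 1.78). The unadjusted p was 0.0177, the limma adjusted p was 0.639 and the exact permutation p was 0.0571.

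On the dimmer Sesn2 probe, ILMN_1219984, the mutants read 27.7, 27.4, 30.0 and 36.4 and the controls 23.9, 23.6, 17.7 and 18.4. Every mutant was above every control, and no other member probe showed this. The log2 fold change was 0.33 (SE 0.13, 95% interval 0.03 to 0.63, limma adjusted p = 0.639), with an exact permutation p of 0.0286, below which 4 against 4 mice cannot go. Its size depended on the value added before log2. With 1 added it was 0.52 and with 50 added 0.18 (unadjusted p = 0.0123 and 0.0788 by limma). On ILMN_2948945 the same settings gave 0.52 and 0.38. Nd2-mutant mouse 35, in which the summed macrophage markers were 1829, had the highest value on both probes. Without this mouse the log2 fold changes were 0.42 and 0.27 at unadjusted p of 0.0511 and 0.102 by limma.

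Sesn1, a sestrin first described as a p53 target, had nearly equal means in both strains and a wider range in the mutants. Probe ILMN_3136744 read 110, 59.7, 49.5 and 72.2 in the mutants and 74.8, 82.1, 70.2 and 63.5 in the controls. Both the highest and the lowest of the 8 values belonged to Nd2-mutant mice. The means were 72.9 ± 26.5 and 72.6 ± 7.81 (SD, n = 4 each), with a log2 fold change of -0.04 (SE 0.20, 95% interval -0.48 to 0.40, limma adjusted p = 0.964). The other Sesn1 probe, ILMN_3059476, was not detected on any array.

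Ccng1 encodes cyclin G1, a long-known target of p53 that acts in the feedback through Mdm2. On the brightest of its 3 probes, ILMN_2500276, the mutants read 1799, 1441, 1321 and 1676 and the controls 533, 1530, 1511 and 1962. Control mouse 15 was far below the other 7 mice, which overlapped. The log2 fold change was 0.31 (SE 0.34, 95% interval -0.45 to 1.06, limma adjusted p = 0.797), and without control mouse 15 it was -0.10. Probe ILMN_2710229 read 915, 759, 532 and 381 in the mutants and 127, 629, 725 and 713 in the controls, and ILMN_2702233 read 450, 389, 334 and 213 against 98.4, 336, 464 and 443. Control mouse 15 was again the lowest of the 8 on both. Their log2 fold changes of 0.42 (SE 0.50) and 0.19 (SE 0.42) had limma adjusted p of 0.810 and 0.894, and became -0.16 and -0.28 without that mouse. Leaving out control mouse 15, whose array also correlated least with the others, therefore turned the direction of the strain difference of Ccng1. In males alone, which also leave out that mouse, it was not turned. The log2 fold changes there were 0.08 for ILMN_2500276, 0.30 for ILMN_2710229 and 0.08 for ILMN_2702233.

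Bax, which permeabilises the outer mitochondrial membrane during apoptosis, did not pass the test between the strains. Its probe ILMN_2907655 read 804, 1030, 1009 and 804 in the mutants and 847, 1163, 911 and 1075 in the controls. Mutants 28 and 35 lay below every control, controls 16 and 37 lay above every mutant, and the other 4 mice lay between them. The means were 912 ± 125 and 999 ± 145 (SD, n = 4 each), a log2 fold change of -0.13 (SE 0.16, 95% interval -0.48 to 0.22, limma adjusted p = 0.815). Perp, a membrane protein of desmosomes that p53 induces in apoptosis, was not detected by its 1 probe on any array, with intensities between -3.49 and 1.56.

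Phlda3 encodes a small pleckstrin homology protein that competes with Akt for membrane lipids. Probe ILMN_2923607 read 579, 531, 442 and 477 in the mutants and 388, 717, 421 and 581 in the controls, and ILMN_2628567 read 441, 337, 296 and 265 against 289, 443, 293 and 381. Control mouse 16 was the highest of the 8 on both, and the strains overlapped. The log2 fold changes were -0.02 (SE 0.20, 95% interval -0.46 to 0.43) and -0.07 (SE 0.20, 95% interval -0.51 to 0.37), with limma adjusted p of 0.983 and 0.920. Trp53inp1, a nuclear stress protein that promotes p53 activity, was measured by 2 probes that pointed in opposite directions. Probe ILMN_2971479 read 98.5, 57.5, 59.8 and 76.2 in the mutants and 99.4, 101, 80.0 and 83.9 in the controls, with mutant mouse 28 among the controls and the other 3 mutants below all of them. Probe ILMN_2506012 read 330, 218, 167 and 240 against 183, 228, 206 and 200, with mutants 28 and 35 above all controls and mutant 34 below all. The log2 fold changes were -0.29 (SE 0.17, 95% interval -0.66 to 0.09, limma adjusted p = 0.661) and 0.18 (SE 0.19, 95% interval -0.24 to 0.60, limma adjusted p = 0.785).

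**Figure D2:**
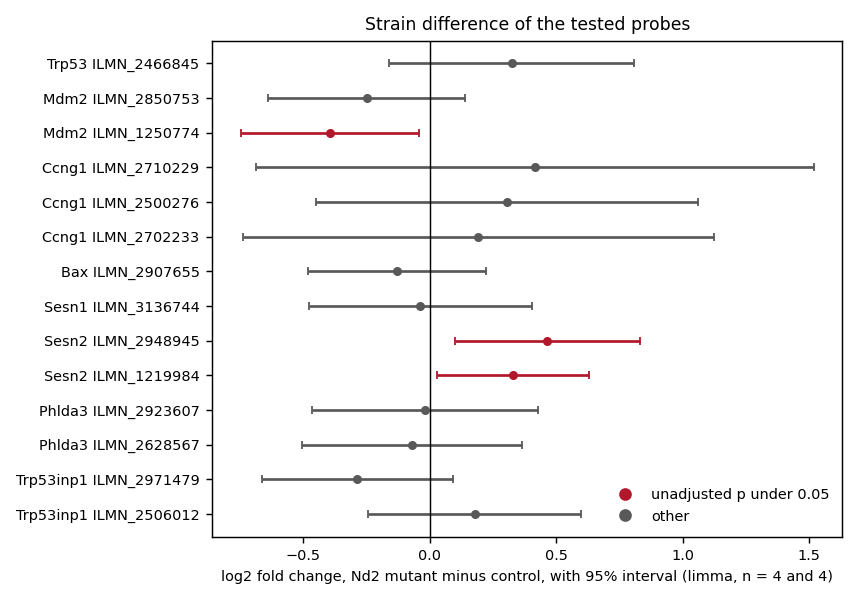
Log2 fold change of each tested member probe, Nd2 mutant minus control on log2 of intensity with 16 added, with its 95% interval from limma (4 mice a strain). The 3 coloured points, at -0.39 for Mdm2 and at 0.33 and 0.47 for Sesn2, are those at an unadjusted p under 0.05, and none passed after adjustment.

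Leaving out each mouse in turn kept the sign of the strain difference for Trp53, Bax and both probes of Mdm2, Sesn2 and Trp53inp1. For Trp53 the log2 fold change ran from 0.21 to 0.48, for Mdm2 ILMN_1250774 from -0.51 to -0.33, and for the Sesn2 probes from 0.35 to 0.56 and from 0.27 to 0.37. The lowest size for Sesn2 ILMN_2948945 and the largest for Mdm2 ILMN_1250774 were both reached without control mouse 17, which was the lowest control on ILMN_2948945 and on Mdm2 ILMN_1250774. Of the 3 member probes at an unadjusted p under 0.05, 0 remained at that p without Nd2-mutant mouse 35, 1 without control mouse 17 (Mdm2), 1 without control mouse 37 (Sesn2 ILMN_2948945) and 2 without any one of the other 5 mice. Mdm2 ILMN_1250774 lost it in 6 of the 8 fits, remaining only without mutant mouse 34 or control mouse 17, Sesn2 ILMN_1219984 in 4 and Sesn2 ILMN_2948945 in 2. No member probe passed after adjustment in any of these fits.

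**Figure D3:**
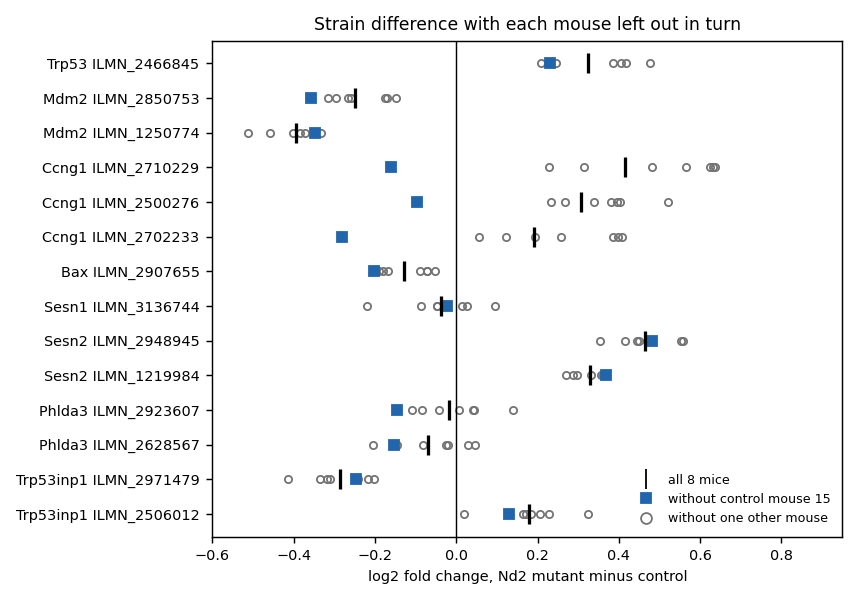
Log2 fold change of each tested member probe with all 8 mice (vertical tick), without control mouse 15 (square) and without each other mouse (open circles). The squares of the 3 Ccng1 probes lie below 0, at -0.16, -0.10 and -0.28, whereas the symbols of Trp53, Mdm2, Bax, Sesn2 and Trp53inp1 stay on one side of 0.

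Males and females were compared over both strains, with strain as a term. Of the 14 member probes, 10 were higher in males. At an unadjusted p under 0.05 there was 1, Ccng1 ILMN_2710229, against 8.31% of all probes tested. Its mean intensity was 757 in the 4 males and 438 in the 4 females, a log2 difference of 0.98 (SE 0.41, unadjusted p = 0.0391) that did not pass after adjustment (limma adjusted p = 0.578), and 0 members passed against 0.0192% of all probes. Control mouse 15, the low array for Ccng1, is a female, and without it this probe was no longer at an unadjusted p under 0.05. The same held when mutant mouse 28, 32 or 35 or control mouse 16 was left out instead. On this probe the mutant males read 915 and 759 and the mutant females 532 and 381. The control males read 629 and 725 and the control females 127 and 713. 0 member probes had an interaction of strain and sex at an unadjusted p under 0.05 by limma, against 1.77% of all probes, and 0 at an adjusted p, against 0.0096%, so that no member was shown to differ between the strains in one sex more than in the other.

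Because Mdm2 is both a target and the inhibitor of p53, its brightest probe was set against the brightest probe of each of the other 7 tested members over the 8 mice, which gave 7 pairs. Trp53 had a Pearson r of -0.48 (exact permutation p = 0.218) and a Spearman rho of -0.26 (p = 0.536). The largest r belonged to Trp53inp1 (r = -0.60, exact permutation p = 0.104, rho = -0.69, p = 0.0694), followed by Bax (r = 0.50, exact permutation p = 0.198, rho = 0.40, p = 0.327). None of the 7 passed the test, and the smallest p after Benjamini-Hochberg adjustment was 0.509 for r and 0.486 for rho. Without control mice 15 and 37, the farthest from the median of Mdm2, r was -0.37 for Trp53, -0.52 for Trp53inp1 and 0.80 for Bax. The r of Sesn2 was -0.31 (exact permutation p = 0.458, rho = -0.43, p = 0.299), and it was 0.65 once the strain means had been removed. Ccng1 (r = -0.42, p = 0.344, rho = -0.26), Sesn1 (r = -0.25, p = 0.566, rho = -0.07) and Phlda3 (r = 0.07, p = 0.873, rho = -0.14) by the same exact permutation test did not pass either, and without the pair of mice above their r was -0.48, -0.28 and 0.40.

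Around the 10 members, 81 other genes of the p53 network were listed by role. 76 of them had a probe, 58 passed the filter and 10 were not detected on any array. Taking the brightest tested probe of each, 30 lay above and 28 below the control in Nd2-mutant fibroblasts, with a median log2 fold change of 0.02. 6 were higher and 1 lower at an unadjusted p under 0.05 (12.1%), against 6.81% of all genes taken in the same way (3.27% higher and 3.54% lower), and 0 passed after adjustment by limma. 3 of the 6 higher genes (Rps6kb1, Bcl2l1 and Igfbp3) were not detected on every control array, so that they entered the test through the mutants alone. Over the 54 genes whose probe was detected on all 8 arrays, 3 were higher and 1 lower (7.41%), against 5.99% of all such genes (2.86% higher and 3.13% lower), a count added after the data had been seen.

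Among the 7 tested genes for p53 relatives and cofactors, 3 were higher and 4 lower, and 0 had an unadjusted p under 0.05. Among 14 tested kinases and other upstream regulators, 10 were higher and 4 lower with a median of 0.14. At an unadjusted p under 0.05 by limma there were 2 (14.3%), both higher, against 6.81% of all genes taken in the same way. One was Usp7, the deubiquitinase that stabilises Mdm2 and p53, which read 145, 138, 136 and 140 in the mutants and 101, 100.2, 100.5 and 133 in the controls. Its strains did not overlap, which held for 4.37% of all probes tested (log2 fold change 0.33, SE 0.14, limma adjusted p = 0.639, exact permutation p = 0.0286). The other was Rps6kb1, a kinase downstream of mTORC1 that is named after its values were seen, with a log2 fold change of 0.45 (SE 0.17, limma adjusted p = 0.639) on a probe detected on the 4 mutant arrays and on 2 of the 4 control arrays, so that it entered the test only through the mutants, where it was higher. The damage kinases Atm and Chek2 had log2 fold changes of 0.21 and 0.02 on their brightest tested probes and of -0.07 and -0.42 on their other tested probes, Chek1 was not detected, and Ppm1d, the phosphatase that switches the response off, had 0.18. Chek2, like Mdm2, stands on the study's list of lower genes from these arrays. Cdkn2a, whose Arf product binds Mdm2, had -0.07.

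Of 7 tested targets for cell cycle arrest, 2 were higher and 5 lower with a median of -0.12. At an unadjusted p under 0.05 by limma there was 1 (14.3%), which was higher, against 6.81% of all genes taken in the same way. Cdkn1a, the cyclin-dependent kinase inhibitor p21 and the best known target of p53, read between 1044 and 1720 in the mutants and between 979 and 2027 in the controls on its brightest probe, with a log2 fold change of -0.20 (SE 0.25, limma adjusted p = 0.815) and of 0.01 and -0.26 on its other probes. Zmat3, an RNA-binding zinc finger protein, was the 1 with an unadjusted p under 0.05. It read 606, 579, 612 and 536 in the mutants and 358, 395, 475 and 543 in the controls, and only control mouse 37 reached the mutant range (log2 fold change 0.40, SE 0.16, unadjusted p = 0.0268, limma adjusted p = 0.639). The damage-inducible Gadd45a was at -0.11 and the polo-like kinases Plk2 and Plk3 were at -0.24 and -0.55 on the log2 scale, none with an unadjusted p under 0.05. Btg2 was not detected.

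Of 11 tested targets for apoptosis, 4 were higher and 7 lower with a median of -0.10. The BH3-only gene Bbc3 had a log2 fold change of -0.17, Pmaip1 did not pass the filter and Aen was not detected. Fas, the death receptor, read 248, 174, 132 and 140 in the mutants and 209, 221, 258 and 236 in the controls (log2 fold change -0.42, SE 0.19, unadjusted p = 0.0523, limma adjusted p = 0.639), and its other tested probe was at 0.09. The 1 gene of this list with an unadjusted p under 0.05 (9.09%, against 6.81% of all genes taken in the same way) was Bcl2l1, named after its values were seen. This gene, whose main product Bcl-xL protects against apoptosis, read 31.3 to 37.9 in the mutants and 9.12 to 30.7 in the controls (log2 fold change 0.48, limma adjusted p = 0.639). Its probe was not detected in control mouse 15 and entered the test only through the mutants. The 7 tested targets for metabolism and redox defence had 4 higher and 3 lower, among them Ddit4, an inhibitor of mTORC1, at -0.30 and the ribonucleotide reductase subunit Rrm2b at -0.13. Sesn3, the remaining sestrin, did not pass the filter. The 7 tested targets for DNA repair had 3 higher and 4 lower. Neither of these lists had a gene at an unadjusted p under 0.05.

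The 5 tested targets that are secreted or sit at the surface had 4 higher and 1 lower. Of these, 3 had an unadjusted p under 0.05 by limma (60%), against 6.81% of all genes taken in the same way. Gdf15, a secreted stress cytokine, read 16.1, 19.3, 41.0 and 29.9 in the mutants and 47.2, 75.7, 26.2 and 79.3 in the controls, with control mouse 17 again the lowest of its strain (log2 fold change -0.74, SE 0.28, unadjusted p = 0.0222, limma adjusted p = 0.639). Thbs1, a matrix glycoprotein, and Igfbp3, a binding protein of insulin-like growth factors, both named after their values were seen, had log2 fold changes of 1.22 (SE 0.37) and 0.88 (SE 0.36), each with a limma adjusted p of 0.639. Igfbp3 was not detected in control mouse 16 and entered the test only through the mutants.

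**Figure D4:**
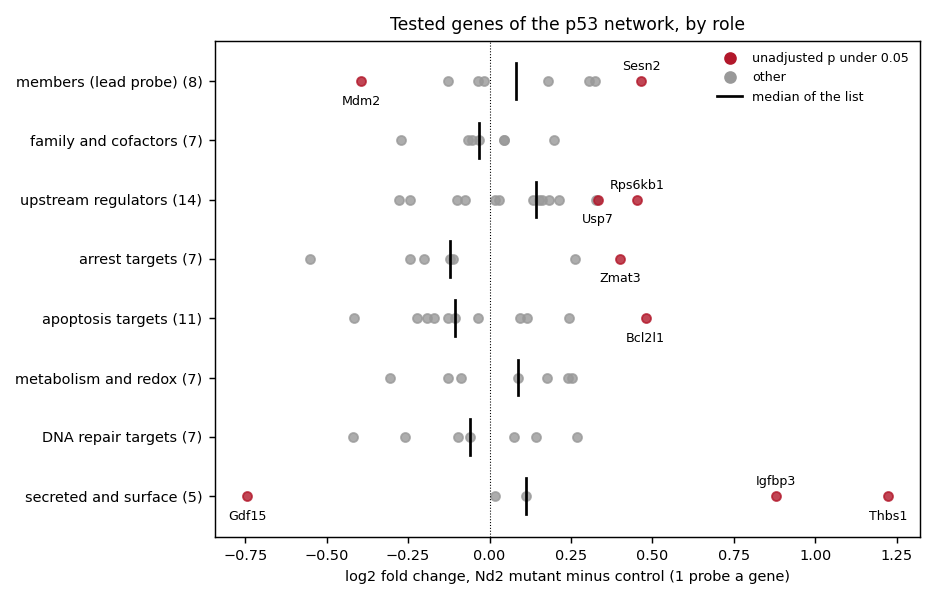
Log2 fold change of each tested gene of the p53 lists, 1 probe a gene, by role, with the number of tested genes in parentheses and a bar at the median of each list. The medians lie between -0.12 (arrest targets) and 0.14 (upstream regulators), and the coloured points at an unadjusted p under 0.05 fall on both sides of 0.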

How the data were processed

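RNA of 8 cultures of skin fibroblasts, 1 a mouse, was hybridised to Illumina MouseRef-8 v2.0 arrays. The authors extracted the data in GenomeStudio, and the deposited intensity values are quantile normalised and background subtracted on a linear scale. Beside each stands a detection p-value that the authors' software computed. The 2 deposited tables hold the same values. Strain, sex and mouse number came from the labels, which name no chip. Negative values were replaced by 0 and log2 was taken after adding 16. Probes detected (detection p under 0.01) on all 4 arrays of at least 1 strain were tested with limma 3.58.1 under R 4.3.3 (both directions), p-values were adjusted by Benjamini-Hochberg across the whole set, and the threshold was 0.05. The fit was tested on simulated data. Single probes were also compared by an exact permutation test of 4 against 4 mice (2-sided, smallest p 0.0286). Named were all probes of the members, 20 other genes of the network, 4 more that were chosen after their values were seen, and the 3 genes most like Trp53 and most like Mdm2. A gene with several probes was given by the tested probe with the highest mean. Atr, Rpl5, Rpl11, Sco2 and Trp53tg5 were not analysed here, since no probe was matched. The members, the lists and the tests were chosen with earlier results of these data known. Alternatives were 1 or 50 added before log2, the linear scale, other detection filters, the methods' t-test, a trend in eBayes, array weights, sex as a term, each sex alone and leaving out each mouse.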

Additional observations from a re-analysis of the deposited data

Results flagged for a closer look

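In each of the 28 groups formed by a tested member probe and a strain, the gap of the most extreme mouse to its neighbour was divided by the range of the 4 mice and set against Dixon's critical value for 4 values. Gap and range were taken on log2 of the intensity with 16 added, whereas the intensities printed below are linear. 2 groups exceeded it, and chance alone gives about 1 in 20, or 1.4 of 28. Control mouse 17 was the lowest control on Mdm2 probe ILMN_1250774 (887 against 1192 to 1258, ratio 0.846), and without it the log2 fold change was -0.51 in place of -0.39. Control mouse 15 was the lowest control on Ccng1 probe ILMN_2710229 (127 against 629 to 725, ratio 0.916), and without it the log2 fold change was -0.16 in place of 0.42. That array correlated least with the others, at a mean of 0.934. Why either mouse was low was not tested.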

How the results depend on the processing

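No paired analysis was possible because no mouse number occurs in both strains. Under 20 alternatives, 8 of the 14 member probes kept the direction of the strain difference, and the smallest adjusted p of any member probe was 0.291. Sesn2 ILMN_2948945 had an unadjusted p under 0.05 in 17 of 20, and Sesn2 ILMN_1219984 and Mdm2 ILMN_1250774 in 12 each. Probes of the whole array that differed between strains at an adjusted p under 0.05 numbered 0, but 1 by the methods' t-test and 3 with no filter. At an unadjusted p they numbered 795, 348 in females alone and 1587 with no filter, and 436 to 1467 when a mouse was left out. Member probes at that p numbered 3, 2 with 50 added or on the linear scale, 0 in females alone and 1 in males alone. Sesn2 ILMN_1219984 was the probe lost with 50 added and on the linear scale. When a mouse was left out they numbered 0 to 3, not always the same probes. Other network genes at that p numbered 7, and 4 on probes detected on all 8 arrays only, an alternative chosen after seeing the data. With array weights, Ccng1 turned to -0.066, -0.091 and -0.23 (ILMN_2710229, ILMN_2500276, ILMN_2702233). Sesn1 turned to 0.088 in males alone and to a difference of 0.240 intensity units on the linear scale, and Phlda3 to 0.012 (ILMN_2923607) and 0.093 (ILMN_2628567) in males alone. When a mouse was left out, Ccng1 ran from -0.16 to 0.64, -0.10 to 0.52 and -0.28 to 0.41, Sesn1 from -0.22 to 0.10 and Phlda3 from -0.15 to 0.14 and -0.20 to 0.045. The cause was not tested.

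Probes that differed by sex at an adjusted p numbered 2, 1 with 50 added, 391 with array weights, 4 if detected on all 8 arrays, 8 if on at least 1, 0 on the linear scale and 3 with no filter, and 0 to 11 when a mouse was left out. At an unadjusted p they numbered 865, 2160 with array weights, 1742 with no filter and 504 to 1814 when a mouse was left out. Member probes among them numbered 1, 0 with 1 added, on the linear scale or with no filter, 3 with array weights, and 0 to 3 when a mouse was left out. The interaction had 1 probe at an adjusted p, 0 with 1 added, on the linear scale or with no filter, and 2 with a trend, and 184 at an unadjusted p, 1212 with no filter.

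The r with Mdm2 ran, when a mouse was left out, from -0.72 to 0.17 for Ccng1, from 0.32 to 0.80 for Bax, from -0.38 to 0.32 for Sesn1, from -0.29 to 0.45 for Phlda3 and from -0.70 to -0.31 for Trp53inp1. That of Sesn2 was 0.65 after removing the strain means. Background-subtracted intensities near 0 limit what can be said of Mdm4 and Perp. Normalisations that need unprocessed intensities were not run.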

Other observations

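Probes of the same gene were set against each other over the 8 mice, in 7 pairs. The Phlda3 probes moved together (r = 0.87, exact permutation p = 0.00461, adjusted p = 0.0161, rho = 0.83, p = 0.0154), with r = 0.85 without control mice 15 and 16. The Sesn2 probes had r = 0.78 (exact permutation p = 0.0221, adjusted p = 0.0516, rho = 0.83, p = 0.0154), 0.47 without mutant mouse 35 and control mouse 17, and 0.40 after removing the strain means. Ccng1 ILMN_2710229 and ILMN_2702233 had r = 0.98 (exact permutation p = 7.2e-04, adjusted p = 0.00503, rho = 0.88) and 0.93 without control mouse 15, whereas ILMN_2500276 had 0.89 and 0.85 with them (adjusted p = 0.0643 for both) and 0.22 and 0.18 without that mouse. The pairs of Mdm2 (r = 0.53, exact permutation p = 0.189, rho = 0.26) and Trp53inp1 (r = 0.40, exact permutation p = 0.342, rho = 0.17) did not pass the test. The r of the Mdm2 probes was 0.82 without control mouse 15 and -0.27 without control mice 16 and 37.

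Of 8002 other genes, those whose log2 values over the 8 mice were most like Trp53 were Llph (r = 0.99), Epm2aip1 (0.97) and Rab7 (0.97), and those most like Mdm2 probe ILMN_1250774 were Rnpc2 (0.99), Hyal2 (0.97) and Trps1 (0.97). These are the highest of many values over 8 mice and are given as a description.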
